A study of Rattus norvegicus with 13 samples.

Results

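Hbb, Slc4a1, Alas2 and Fech are 4 genes of the red blood cell, found by symbol among the 14790 genes of the expression table. They were chosen by their measured values in the same rats, as genes that were higher at 6 weeks of age and varied together between rats. Their difference between the ages and their co-variation are therefore given as a description, with no test. RNA came from the mammary epithelial cells of 13 Wistar-Furth rats, a strain susceptible to mammary cancer. Mammary carcinogens act most strongly during a window of susceptibility (WOS), in which 6 rats were taken, at 6 weeks. A further 7 were taken outside WOS, at 10 weeks. No rat was described as treated, and all were of the same strain. The abdominal and inguinal glands were freed of lymph nodes and digested with collagenase to collect ductal fragments. For the RNA samples the paper names differential centrifugation as the collecting step, and it names a filter for other samples of the study. The preparation enriches epithelial cells, while stromal and immune cells can remain. A step that lyses red blood cells is not given in the sources used here. Each rat gave 1 library.

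Hemoglobin is a tetramer of alpha-globin and beta-globin chains, each holding a haem group that binds oxygen. Erythroblasts in the bone marrow make globin and haem in step, and mature red cells of mammals have lost the nucleus but carry leftover globin mRNA into the blood, most of it in the young cells called reticulocytes. Tissue that holds blood therefore yields globin RNA. Hbb encodes beta-globin. Slc4a1 encodes band 3, the anion exchanger that is the main protein of the red cell membrane. Alas2 encodes the erythroid form of the enzyme that starts haem synthesis, and Fech encodes ferrochelatase, which inserts iron into the porphyrin ring at the last step. Of the 4, Fech is made in most cell types, since every cell needs haem for its mitochondria, whereas the other 3 are largely restricted to the red cell lineage, with Slc4a1 also made in the kidney.

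The DNA upstream of these genes is shown because red cell genes are known to be switched on through GATA and CACCC elements. RefSeq places Hbb on chromosome 1, Slc4a1 on chromosome 10, Fech on chromosome 18 and Alas2 on chromosome X. The windows are the 250 bases before the annotated start of each gene in RefSeq on GRCr8, written along the strand of the gene. Those of Hbb (chr1:167663722-167663971, minus strand), Alas2 (chrX:22895200-22895449, plus strand) and Fech (chr18:60248526-60248775, minus strand) are set beside that of the alpha-globin gene Hba-a2 (chr10:15829139-15829388, minus strand). Capitals mark, on either strand, every match to the GATA elements AGATAA and its variant TGATAA, to the element CACCC, to the box spelled CCAAT and to ATAAAA, a form of the TATA box.
Hbb: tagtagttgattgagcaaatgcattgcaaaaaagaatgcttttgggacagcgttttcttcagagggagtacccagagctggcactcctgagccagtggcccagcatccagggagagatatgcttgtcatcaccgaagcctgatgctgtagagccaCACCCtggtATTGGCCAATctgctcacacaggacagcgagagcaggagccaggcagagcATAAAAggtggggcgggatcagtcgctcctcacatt
Alas2: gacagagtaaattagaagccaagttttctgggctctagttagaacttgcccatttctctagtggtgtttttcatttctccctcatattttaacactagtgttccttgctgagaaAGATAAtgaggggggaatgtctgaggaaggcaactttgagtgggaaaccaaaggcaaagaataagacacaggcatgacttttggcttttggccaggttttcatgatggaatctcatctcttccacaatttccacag
Fech: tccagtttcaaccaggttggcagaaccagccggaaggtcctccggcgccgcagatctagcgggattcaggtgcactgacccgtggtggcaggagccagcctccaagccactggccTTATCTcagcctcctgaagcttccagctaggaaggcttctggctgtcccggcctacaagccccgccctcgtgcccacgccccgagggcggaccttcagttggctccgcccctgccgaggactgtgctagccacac
Hba-a2: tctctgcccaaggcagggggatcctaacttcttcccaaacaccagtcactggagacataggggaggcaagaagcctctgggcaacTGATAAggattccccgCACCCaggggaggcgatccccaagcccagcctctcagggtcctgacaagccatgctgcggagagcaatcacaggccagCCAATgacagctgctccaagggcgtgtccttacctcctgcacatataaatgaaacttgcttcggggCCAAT

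In the Hbb window, CACCC lay at bases -95 to -91 counted back from the start, followed by CCAAT on the minus strand at -86 to -82, CCAAT on the plus strand at -81 to -77 and ATAAAA at -36 to -31. The Alas2 window held AGATAA at -136 to -131. In the Fech window the same letters lay on the minus strand at -135 to -130, where they read TTATCT. The Hba-a2 window held TGATAA at -165 to -160, CACCC at -149 to -145 and CCAAT at -71 to -67 and at -5 to -1. None of these matches overlapped another. Among 33469 rat windows of the same length, 10.3% held AGATAA and 7.97% held its variant TGATAA, while 49.2% held the element CACCC, 34.0% had a match to CCAAT and 18.6% had one to ATAAAA, so each set of letters is common and a match is only a description. The Fech window was the richest in G and C, at 65.2%, with 14 CG pairs, against 52.8% and 5 pairs for Hbb and 41.6% and 0 pairs for Alas2.

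The values are normalized counts, which are RSEM counts that the authors scaled for each library and rounded to whole numbers. The totals ran from 13261906 to 15659533 at 6 weeks and from 13766735 to 15402814 at 10 weeks. Low values were not equally fine in all rats. In 7 of 13 libraries some whole numbers from 1 to 30 never occurred, and the mean step between values that did occur reached 1.5 normalized counts in rat 75, 2.00 in rat 80 and 2.14 in rat 78, against 1 in the finest libraries. A value of 10 in rat 78 therefore rests on fewer reads than 10 in rat 83. Within ages, 28.3% of the variation over all genes lay on a single component that split the rats into sets of 8 and 5, each holding rats of both ages. Results that rest on this split are given for the sets alone. The sets were drawn from these same values, so calls within a set are a description. In the fit over all genes, 8.71% of the 14790 genes were differentially expressed (DE) and higher at 6 weeks, and 7.39% were DE and higher at 10 weeks. DE here means a Benjamini-Hochberg adjusted p under 0.05 by limma.

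Beta-globin was far higher within WOS. At 6 weeks, Hbb (ENSRNOG00000058105) had 1935 normalized counts in rat 70, 1228 in rat 71, 2535 in rat 75, 3119 in rat 80, 1312 in rat 84 and 2126 in rat 86. At 10 weeks it had 341 in rat 72, 173 in rat 74, 568 in rat 78, 190 in rat 81, 251 in rat 83, 814 in rat 85 and 250 in rat 87. The lowest 6-week rat stood above the highest 10-week rat, so the ages did not overlap, which was true of 3.29% of all genes in this direction. Rat 85 was the 10-week rat nearest to the 6-week range. The means were 2042.5 ± 723 (SD, n = 6) and 370 ± 237 (SD, n = 7), a ratio of 5.53, and the log2 fold change was 2.60 with a standard error of 0.37. It was 2.27 within the larger set of rats and 3.22 within the smaller. In bulk RNA, fewer red cells and less globin RNA per red cell cannot be told apart.

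Band 3 was present at low values only. At 6 weeks, Slc4a1 (ENSRNOG00000020951) had 13 normalized counts in rat 70, 9 in rat 71, 19 in rat 75, 13 in rat 80, 13 in rat 84 and 20 in rat 86. At 10 weeks it had 2 in rat 72, 5 in rat 74, 10 in rat 78, 0 in rat 81, 4 in rat 83, 1 in rat 85 and 1 in rat 87. The ages overlapped by a single pair, since rat 71 lay below rat 78, and 5 of 6 younger rats stood above every older rat. The means were 14.5 ± 4.18 (SD, n = 6) and 3.29 ± 3.45 (SD, n = 7), with a log2 fold change of 2.20 (SE 0.46). It was 2.29 in the larger set and 2.14 in the smaller. The 10 in rat 78 came from the library with the widest steps.

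The erythroid enzyme of haem synthesis showed a smaller difference. At 6 weeks, Alas2 (ENSRNOG00000000167) had 20 normalized counts in rat 70, 14 in rat 71, 37 in rat 75, 19 in rat 80, 21 in rat 84 and 21 in rat 86. At 10 weeks it had 7 in rat 72, 8 in rat 74, 10 in rat 78, 1 in rat 81, 8 in rat 83, 14 in rat 85 and 10 in rat 87. Rats 71 and 85 tied at 14, and the other 5 younger rats stood above every older rat. The means were 22 ± 7.80 (SD, n = 6) and 8.29 ± 3.95 (SD, n = 7), with a log2 fold change of 1.44 (SE 0.39). Much of this size depended on which rats entered. It was 0.92 in the larger set and 2.24 in the smaller set, and without rat 81, the lowest, it was 1.10.

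Ferrochelatase differed least. At 6 weeks, Fech (ENSRNOG00000018053) had 81 normalized counts in rat 70, 77 in rat 71, 72 in rat 75, 111 in rat 80, 102 in rat 84 and 99 in rat 86. At 10 weeks it had 61 in rat 72, 75 in rat 74, 33 in rat 78, 56 in rat 81, 59 in rat 83, 50 in rat 85 and 67 in rat 87. Only rat 75 fell within the range of the older rats, below rat 74. The means were 90.3 ± 15.7 (SD, n = 6) and 57.3 ± 13.4 (SD, n = 7), a ratio of 1.58, with a log2 fold change of 0.67 (SE 0.18). Within the larger set it was 0.50 and within the smaller 0.89.

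**Figure D1:**
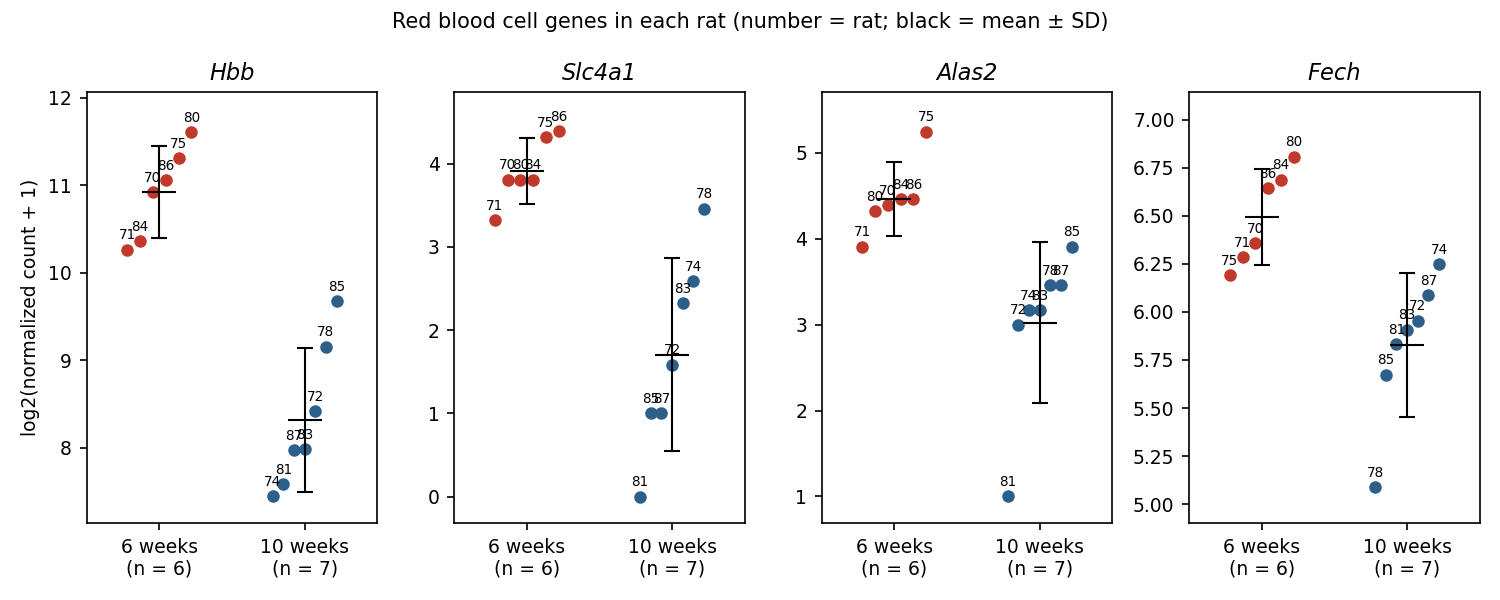
Normalized counts of Hbb, Slc4a1, Alas2 and Fech in each rat, as log2(normalized count + 1) on the vertical axis, with its own range for each gene. Points are rats, numbered, at 6 weeks (red, n = 6) and 10 weeks (blue, n = 7), and black bars give the mean ± SD. For Hbb every 6-week rat lies above every 10-week rat, and for the other 3 genes 5 of 6 do.

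The rest of the hemoglobin pair followed Hbb. The 2 records of Hba-a2, an adult alpha-globin gene, were both DE. The first (ENSRNOG00000029886) had normalized counts of 896 in rat 70, 397 in rat 71, 1150 in rat 75, 1623 in rat 80, 484 in rat 84 and 557 in rat 86. At 10 weeks it had 104 in rat 72, 52 in rat 74, 318 in rat 78, 124 in rat 81, 140 in rat 83, 267 in rat 85 and 77 in rat 87. The ages did not overlap, and its log2 fold change was 2.52 (SE 0.44, limma adjusted p = 0.00278). The second (ENSRNOG00000047321) ran from 206 to 905 at 6 weeks and from 16 to 153 at 10 weeks, again with no overlap, and had a log2 fold change of 2.54 (SE 0.49, limma adjusted p = 0.00487). Both were called in all 13 fits that left out a rat. A further alpha-globin gene, Hba-a3, had 4 to 24 at 6 weeks and 1 to 8 at 10 weeks and was not DE, with a log2 fold change of 1.09 (limma adjusted p = 0.0994).

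Further beta-globin records were found by their description, after the values were seen. LOC103694857, described as a beta-2 chain, ran from 368 to 691 normalized counts within WOS and from 43 to 251 outside it, with no overlap. Its log2 fold change was 2.70 (SE 0.34). LOC103694855, described as beta-2-like, ran from 71 to 236 and from 20 to 82, and its log2 fold change was 1.81. Both records may share reads with Hbb, so their difference between the ages is given as a description, with no test. Globin copies are nearly identical, so RSEM may split reads between these records and the share of each is uncertain. Their sum is less exposed to that. Over the 6 globin records it ran from 2290 to 6593 at 6 weeks, with a median of 3839, and from 337 to 1551 at 10 weeks, with a median of 562. As a share of the total, globin made up 0.0168% to 0.0497% at 6 weeks and 0.00231% to 0.0111% at 10 weeks.

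Within each age, the beta to alpha ratio spanned less than either chain. Between the highest and lowest 6-week rats, alpha spanned 4.20-fold, beta 2.40-fold and their ratio 1.96-fold. Among the 10-week rats these spans were 6.75-fold, 4.31-fold and 2.79-fold. Over all 13 rats the summed globin count spanned 19.6-fold, which includes the difference between the ages, and the ratio 2.79-fold. The ratio ran from 1.59 to 3.11 within WOS, with a median of 2.08. Outside WOS it ran from 1.34 to 3.75, with a median of 2.53, so the ages overlapped. The ratios of the other genes to Hbb varied between rats, and the medians of Alas2 and Fech were higher at 10 weeks. Per 1000 normalized counts of Hbb there were 6.09 to 16 of Alas2 at 6 weeks, with a median of 10.9. At 10 weeks there were 5.26 to 46.2, with a median of 20.5. For Slc4a1 the values were 4.17 to 9.91, with a median of 7.41, and 0 to 28.9, with a median of 5.87. For Fech the values were 28.4 to 77.7 at 6 weeks, with a median of 44.2, and 58.1 to 434 at 10 weeks, with a median of 235. Fech differed 1.58-fold between the age means, and Hbb 5.53-fold.

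**Figure D2:**
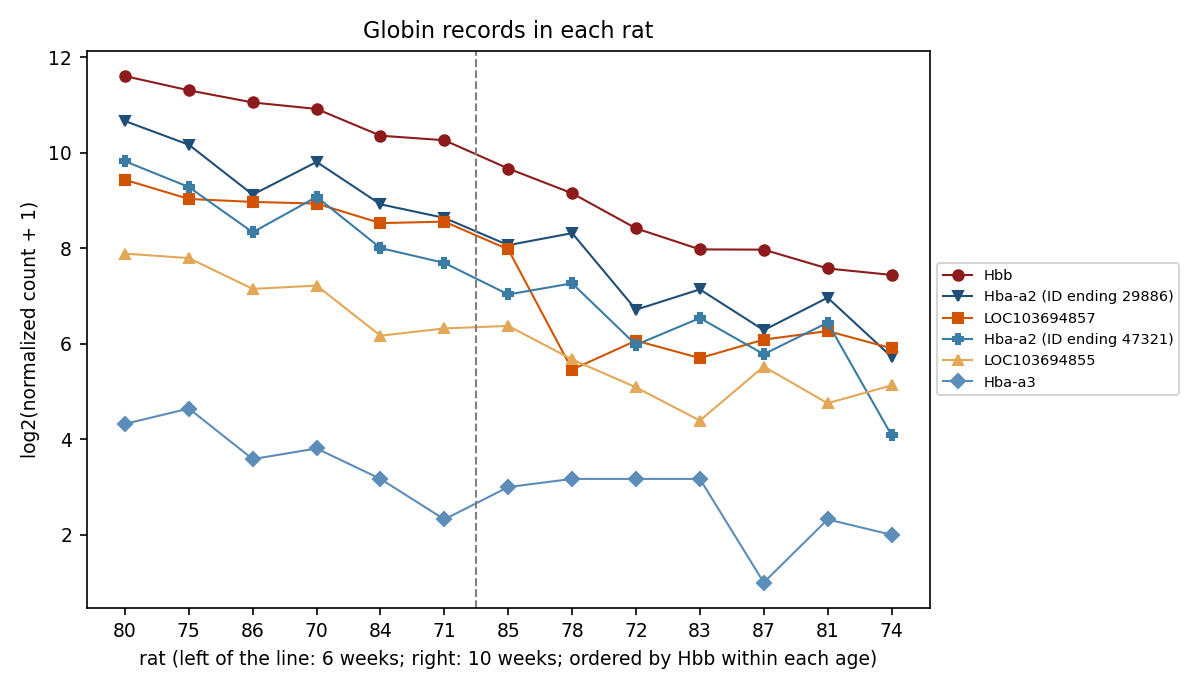
Globin records in each rat as log2(normalized count + 1), with 6-week rats left of the dashed line and 10-week rats right of it, ordered by Hbb within each age. Every record but Hba-a3 and LOC103694855 is higher in each 6-week rat than in any 10-week rat. Among the older rats LOC103694857 is highest in rat 85 (251) and lowest in rat 78 (43), which has the second highest Hbb.

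Because the genes were selected on a shared difference with age, their raw correlation over rats contains that difference. Over 13 rats, the raw Pearson r of Hbb was 0.78 with Slc4a1, 0.82 with Alas2 and 0.53 with Fech. All rats of an age share its mean, so the mean of each age was then removed. What was left differed from pair to pair, and the differences between these r values were not tested. Hbb and Alas2 still varied together, with r = 0.56 and Spearman's rho = 0.46, and r was 0.55 without rats 74 and 85, the 2 farthest from the median of Hbb. Leaving out each rat in turn kept this r between 0.45 and 0.65.

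Hbb and Slc4a1 had r = 0.23 (rho = 0.17) after the age means were removed. That value was 0.72 without rats 74 and 85, -0.02 without rat 78, and -0.38 within the larger set of 8 rats. Slc4a1 and Alas2 had r = 0.56 (rho = 0.31), and r was -0.01 without rats 78 and 81, the 2 farthest from the median of Slc4a1. Among the 6-week rats alone, which include neither, it was 0.78 (n = 6). In rat 81 Slc4a1 was at 0 and Alas2 at 1.

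The r of Fech and Hbb had a different sign at each age, from few rats. Among the 6-week rats alone r was 0.22 (n = 6), rat 80 being the highest for both genes, and among the 10-week rats alone it was -0.70 (n = 7). Over all 13 rats with the age means removed, r was -0.46 (rho = -0.38), and -0.37 without rats 74 and 85. Leaving out each rat in turn gave -0.63 (without rat 80) to -0.28 (without rat 78). The difference between the ages was not tested. At 10 weeks, rat 78 had the second highest Hbb and the lowest Fech, and rat 74 had the lowest Hbb and the highest Fech. Fech had r = -0.30 with Slc4a1, a value that was 0.34 without rat 78 alone, and -0.17 with Alas2. For the 4 genes, the r with the log2 total of a library lay between -0.16 and 0.04. The totals are of counts already scaled for each library, so these r values cannot speak to depth. With the component that split the rats, r was 0.25 for Hbb, 0.14 for Slc4a1, -0.24 for Alas2 and -0.38 for Fech. Its part in these relations was not tested.

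**Figure D3:**
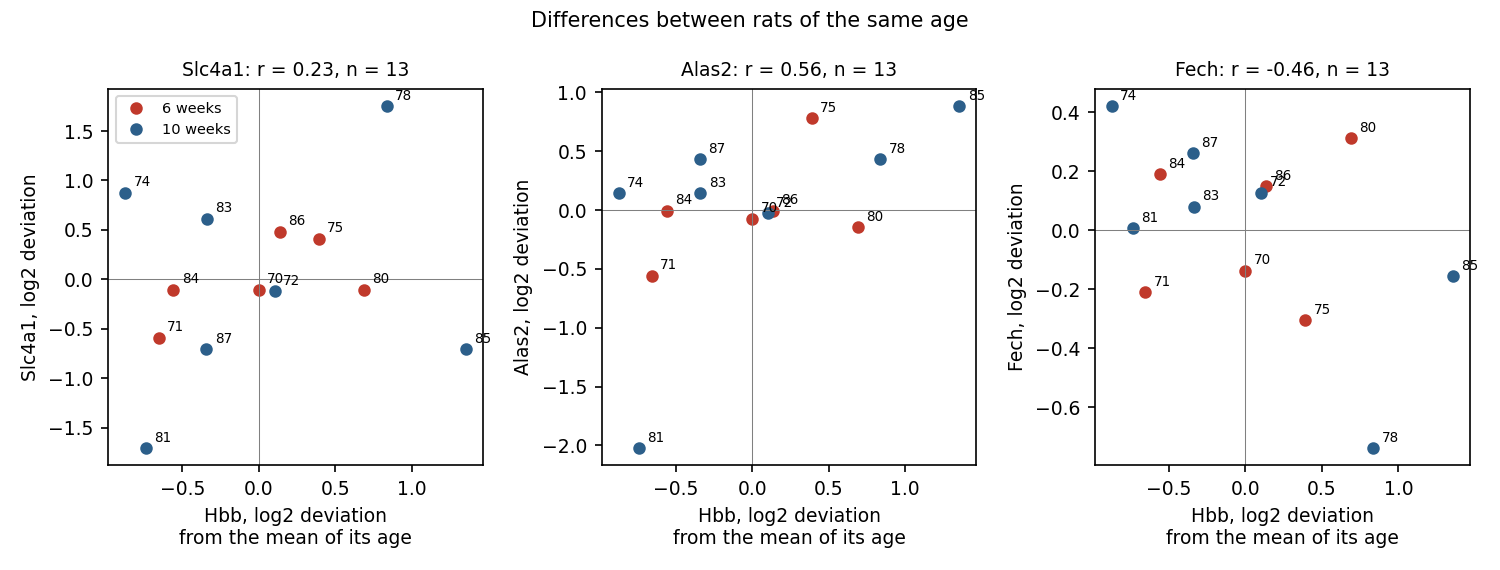
Deviation of Hbb from the mean of its age (horizontal, log2) against that of Slc4a1, Alas2 and Fech (vertical, log2) in each of 13 rats, at 6 weeks (red) and 10 weeks (blue). The points rise together for Alas2 (r = 0.56), show little order for Slc4a1 (r = 0.23) and descend for Fech among the 10-week rats (r = -0.46 over all rats).

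The other enzymes of haem synthesis leaned towards 6 weeks without passing the test. Between Alas2 or its housekeeping form Alas1 at the start and Fech at the end stand enzymes that include Alad, Uros, Urod, Cpox and Ppox. None of these 6, Alas1 included, was DE by limma, and 2 of 6 had an unadjusted p under 0.05, which 31.6% of all genes had. All 6 had a log2 fold change above 0, as did 52.5% of all genes. Their median was 0.48, where the median over all genes was 0.03. Ppox, which makes protoporphyrin, had a median of 30.5 normalized counts at 6 weeks and 15 at 10 weeks (log2 fold change 0.95, limma adjusted p = 0.127). Uros had 20.5 and 8 (1.11, adjusted p = 0.363), and Alad 65 and 46 (0.53, adjusted p = 0.152). Urod had 151 and 89 (0.43), Alas1 326 and 261 (0.23), and Cpox 166 and 121 (0.11).

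Rat 80 set itself apart here. It had the highest Hbb and Fech of all rats, yet the lowest mean level of these 6 enzymes. Cpox, Urod and Uros were lowest there, Uros tied at 0 with rat 81, while Alas1 was at its highest, 428. The list score, the mean of log2(normalized count + 1) over a list, was 4.98 in rat 80 and between 6.20 and 6.82 in the other 6-week rats. All of those 5 stood above the 10-week rats, whose scores ran from 5.40 to 5.91. Uros was at 0 in rat 80, one of the libraries with wide steps, and at 21 to 29 in rats 71, 84 and 86. In the larger set of rats alone, 4 of these 6 enzymes were DE and higher at 6 weeks, namely Ppox, Uros, Urod and Cpox. The fit called 13.4% of all genes in that direction. That set holds neither rat 80 nor rat 75 and was drawn from these same values, so its calls are only a description. In the smaller set alone, 4 of 6 had a log2 fold change below 0.

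In lists written from general knowledge, the remaining red cell genes showed few calls. The 6 lists cover globins, red cell membrane, haem synthesis enzymes, haem transport and breakdown, erythroid transcription factors and late erythroid genes, and 70 of their 101 names matched the table. Outside the 4 members, 5 of 67 records (7.46%) were DE and higher at 6 weeks and 3 (4.48%) were DE and higher at 10 weeks, beside 8.71% and 7.39% of all genes. The median log2 fold change was 0.11. Without the 3 rats with the widest steps the counts were 8 and 0, where 9.27% and 6.34% of all genes were called, and in the larger set alone 14 were higher at 6 weeks, where 13.4% of all genes were. Defining genes of the lineage such as Gata1, Klf1, Ank1, Epb42, Rhag and Ahsp are not analysed here.

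In the membrane, Gypc, a glycophorin that anchors the membrane skeleton and is made in many cells, was higher within WOS, with 229 to 416 normalized counts against 184 to 256 (log2 fold change 0.51, SE 0.15, limma adjusted p = 0.0376). Xk, a membrane protein linked to the Kell antigen, was lower, with 261 to 410 against 372 to 750 (log2 fold change -0.68, limma adjusted p = 0.0210). Not DE were the spectrin gene Sptb (-0.64), Dmtn (0.73) and Slc43a1 (0.42). The median over the 14 membrane genes other than Slc4a1 was -0.02, and 7 of 14 were above 0.

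Among genes that move haem and iron, Flvcr1, described as a haem exporter, was higher within WOS (log2 fold change 0.55, SE 0.15, limma adjusted p = 0.0272), as was Slc48a1, which carries haem out of lysosomes (0.43, limma adjusted p = 0.0423). Abcb10, a mitochondrial transporter that stabilises the iron importer of erythroid cells, was lower (-0.57, limma adjusted p = 0.0413). Slc11a2, the iron transporter DMT1, had 654 to 800 normalized counts at 6 weeks and 821 to 1102 at 10 weeks, with no overlap (log2 fold change -0.35, SE 0.10, limma adjusted p = 0.0305). Tfrc, the transferrin receptor through which erythroblasts take up iron, had 2740 to 4698 and 3120 to 5203 (-0.22, limma adjusted p = 0.366). Slc25a39, Tspo and Tmem14c were not DE at 0.72, 0.69 and 0.61. Of the 8 called records, the 2 of Hba-a2 were called in every fit without a rat, Xk in 12, Slc11a2 in 9, Flvcr1 in 7, Gypc and Slc48a1 in 4 each and Abcb10 in 3.

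None of the 9 erythroid transcription factors and none of the 15 late erythroid genes analysed here was DE. Over all genes, 8.71% were DE and higher at 6 weeks and 7.39% were DE and higher at 10 weeks. Gata1 and Klf1 were not among these factors. At an unadjusted p under 0.05, there were 0 of 9 factors and 4 of 15 late genes, beside 31.6% of all genes. With a mean of at least 10, the largest log2 fold changes among the factors were those of Zfpm1, a GATA cofactor (-0.54), Bcl11a, a repressor of embryonic globin (0.31), and Cbfa2t3 (0.31). Among late genes of that mean they were those of Prdx2, an abundant antioxidant of red cells (0.64, limma adjusted p = 0.0871), Mxi1 (0.51) and Tspan33 (0.50).

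**Figure D4:**
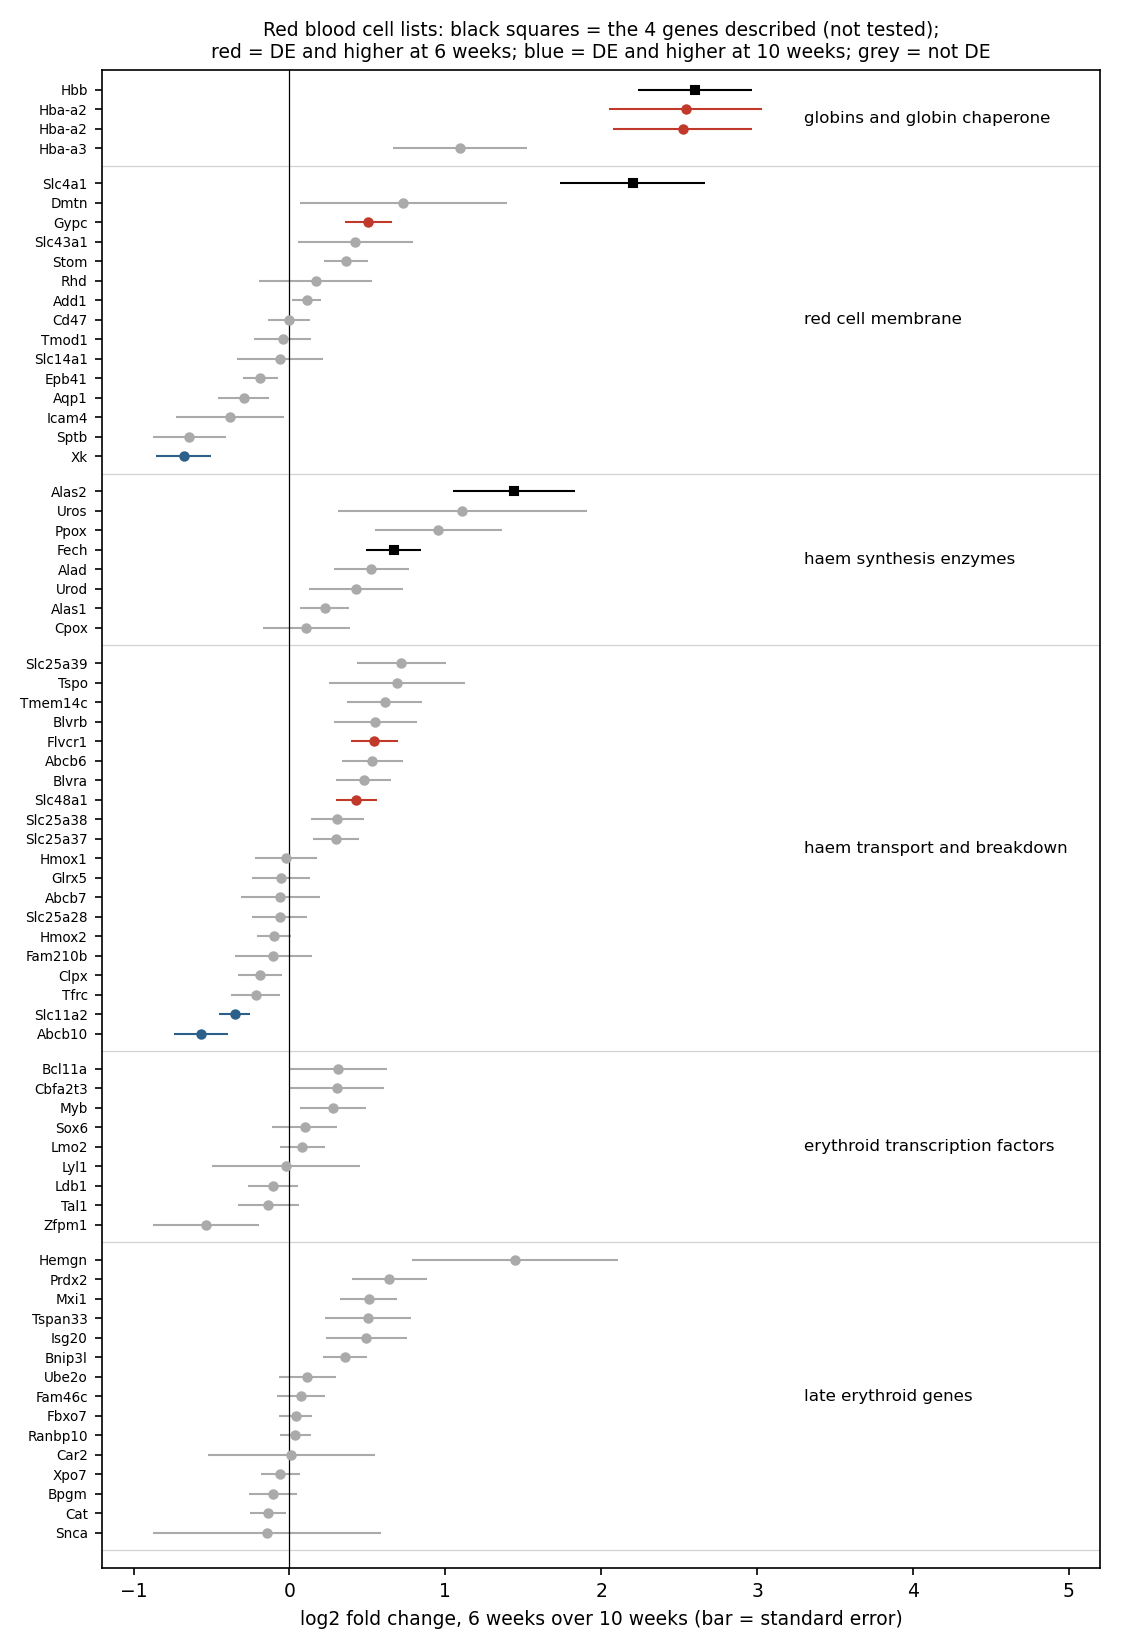
Log2 fold change of each red cell list gene, 6 weeks over 10 weeks, with its standard error as a bar. Black squares are Hbb, Slc4a1, Alas2 and Fech, red and blue circles are DE genes higher at 6 and 10 weeks, and grey circles are not DE. Hbb and both Hba-a2 records lie farthest to the right. Haem synthesis enzymes all lie above 0 and the other lists, apart from the globins, hold genes on both sides of it.

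Genes of other cell types moved with Hbb as well. Of 6 mast cell genes, 5 were DE and higher within WOS, as were 8.71% of all genes. The list score was 6.44 to 7.26 at 6 weeks and 3.83 to 5.96 at 10 weeks, with no overlap. Cpa3, a mast cell protease, had 200 to 587 normalized counts and 9 to 116 (log2 fold change 3.86, SE 0.52, limma adjusted p = 0.000492). Kit, the sixth, is also made by mammary epithelial cells and was lower (-0.71, limma adjusted p = 0.0343). Of 6 fibroblast genes, 4 were higher (scores 12.4 to 13.4 against 10.7 to 12.1), and of 5 adipocyte genes 3 (5.82 to 6.77 against 4.28 to 5.43), both without overlap. Their part in the difference of Hbb was not tested.

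In each of the remaining cell type lists at most 1 gene was called. Over all genes, 8.71% were DE and higher at 6 weeks and 7.39% were DE and higher at 10 weeks. These lists are short, and only 6 of 13 lymphocyte, 4 of 13 platelet and 1 of 11 neutrophil names are analysed here. At 6 weeks, 1 of 10 endothelial genes and 1 of 6 lymphocyte genes were higher, and 0 of 9 macrophage genes, 0 of 4 platelet genes and 0 of 1 neutrophil gene were called by limma, where 1 macrophage gene and no platelet or neutrophil gene had an unadjusted p under 0.05. The scores were 9.21 to 10.1 against 9.0 to 9.70 for endothelial cells, 2.75 to 5.27 against 2.08 to 4.98 for lymphocytes, 5.40 to 7.04 against 5.31 to 6.81 for macrophages, 5.08 to 6.47 against 4.75 to 5.78 for platelets and 0 to 4.32 against 2.81 to 4.86 for the neutrophil gene. The labelled tissue had its defining markers in every rat. Epcam had 8992 to 12181 normalized counts at 6 weeks and 12058 to 17079 at 10 weeks (log2 fold change -0.39, limma adjusted p = 0.0454). It was 1 of 10 luminal genes called, and Cnn1 (-0.46, limma adjusted p = 0.0357) was 1 of 7 basal genes called, both lower at 6 weeks. With a rat left out, Epcam was called in 0 of 13 fits (adjusted p 0.0505 to 0.0808) and Cnn1 in 4. Luminal scores were 9.45 to 10.3 and 9.87 to 10.4, and basal scores 10.0 to 10.9 and 10.3 to 11.3.

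Between rats of the same age, the score of mast cell genes had r = 0.79 with Hbb, beside 0.73 for macrophages, 0.67 for lymphocytes, 0.66 for fibroblasts, 0.61 for adipocytes and 0.46 for endothelial cells. The points are the same 13 libraries in each case. Without the 2 rats farthest from the median of Hbb these values were 0.55, 0.59, 0.59, 0.54, 0.87 and 0.49. Within the larger set they were 0.97, 0.78, 0.74, 0.79, 0.31 and 0.29. For luminal and basal genes r was 0.05 and -0.10 over all 13 rats. The haem enzymes other than Alas2 and Fech had r = -0.49 with Hbb, -0.67 without those 2 rats and -0.18 within the larger set. Fech had r = -0.62 (rho = -0.55) with macrophages, -0.59 (rho = -0.42) with lymphocytes and -0.52 (rho = -0.63) with luminal genes. With the other membrane genes it had r = 0.68 (rho = 0.48). Rat 78, the library with the widest steps, had the lowest Fech and the lowest membrane score, and its part in that r was not tested. The part of these cell types in the levels of Hbb and Fech was not tested.

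**Figure D5:**
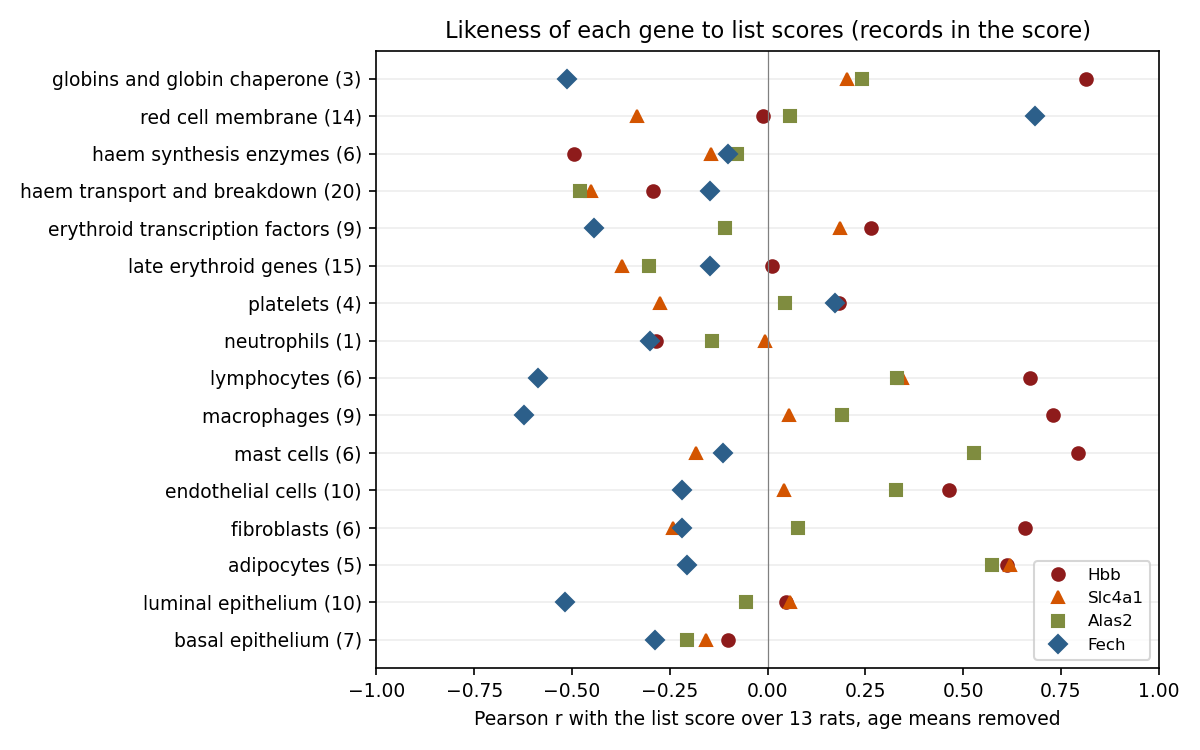
Pearson r between each of the 4 genes and each list score over 13 rats with age means removed (horizontal), by list (vertical, with the records in the score). Hbb lies to the right for globins, mast cells, macrophages and lymphocytes, where Fech lies below 0.

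A search over all 14276 genes with a mean of at least 10 named the genes most like each member between rats, again with age means removed. For Hbb these were Clstn3 (r = 0.89), a calsyntenin, Ptpn22 (0.88), a phosphatase of lymphocytes, Mrc1 (0.88), a mannose receptor of macrophages, Itgb2 (0.88), a leukocyte integrin chain, and Irf4 (0.87), a transcription factor of immune cells. None of these 5 was DE. The first Hba-a2 record had r = 0.86 with Hbb and ranked 8 of 14276, LOC103694855 ranked 13, the second Hba-a2 record 55 and LOC103694857, with r = 0.61, 307.

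For Fech the gene most alike was Rhd (r = 0.92), which encodes a Rhesus blood group protein, followed by Zfp719 (0.92), Ccdc18 (0.91), Il7 (0.90) and Dhx57 (0.89). Rhd had 17 to 42 normalized counts at 6 weeks and 6 to 39 at 10 weeks and was not DE (log2 fold change 0.17, limma adjusted p = 0.784). The 6 was in rat 78, which had the lowest Fech and the widest steps. The part of that rat in the r of Rhd with Fech was not tested. For Slc4a1 the first 5 were Luc7l (0.90), Mzt1 (0.85), Hhip (0.84), RGD1305178 (0.84) and Pms2 (0.83), and for Alas2 they were Cdr2 (0.91), Slc43a3 (0.90), Tbc1d30 (0.90), Hdac9 (0.89) and RGD1566029 (0.89). The lists of the 4 genes shared no name. With the mean of the 4 members, each scaled to unit SD, r ran from 0.90 for Hdac9 to 0.85 for Lysmd4, with LOC683961, RGD1566029, Aox1, Asic1, Zfp54, LOC108348101, Zfpm2 and Knop1 between them. With 13 rats and so many genes, values of this size are a description of these libraries.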

How the data were processed

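Total RNA was sequenced from the mammary epithelial cells of 13 rats, 1 library per rat. The authors' deposited table holds counts per gene estimated with RSEM 1.2.22, scaled for each library and rounded. Its per-rat values were therefore treated as a score (normalized counts), since a test for raw counts could not be used. The submitters' processing notes name rn5, and which annotation was counted is not given in the sources used here. The authors' table also gives their own comparison of the ages, as log2 fold changes and log2 abundance, a likelihood ratio score and p-values, none of which was used. The scaled totals limit what can be said of depth, and the precision of values under about 30 differs between rats.

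All 14790 genes had a mean of at least 1 and were fitted on log2(normalized count + 1), 6 weeks against 10 weeks, without covariates, by limma 3.58.1 (R 4.3.3). Two-sided p-values were adjusted over all genes by the Benjamini-Hochberg method, and the threshold was 0.05. Fold changes are on the log2(value + 1) scale and understate changes of low genes. P-values set the difference between the ages against the spread between these rats. The members and gene lists were chosen with earlier results of these data known, and a few list genes are not reported here.

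Named genes followed a rule. It takes the 4 members, every DE gene of the red cell lists, up to 3 further genes of each list with the largest absolute log2 fold change at a mean of at least 10, every haem enzyme, the 5 genes with the highest r to each member and the 10 with the highest r to their mean. Globin records under LOC symbols and Tfrc were added after their values were seen, and marker genes of other cells illustrate their lists. Correlations used Python 3.11.15, numpy 2.4.6 and scipy 1.17.1. Alternatives were median-ratio, upper quartile and library size scaling, a value of 0.1 in place of the 1 added before the log, only genes reaching 10 in every rat, each rat left out and the rat sets alone, and, chosen after seeing the data, a fit without rats 75, 78 and 80. The fit was tested on simulated data. Upstream windows came from RefSeq on GRCr8.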

Additional observations from a re-analysis of the deposited data

Results flagged for a closer look

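Within each age, 86 groups of values of the members, named red cell genes and list scores were looked at for a single rat far from the others, and 11 were found, where chance alone marks about 1 group in 20. All values are log2(normalized count + 1) or the mean of it over a list.

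Alas2 was 1 in rat 81, the lowest at 10 weeks, and the next rat was at 3. Rat 80 was lowest at 6 weeks for Uros, at 0 where the next rat was at 3.70, for the haem synthesis enzymes, at 4.98 against 6.20, and for the neutrophil gene, at 0 against 2.81. In rat 78, Dmtn was 0 against 3.81 in the next 10-week rat and the red cell membrane score was 7.47 against 7.93. Tspan33 was 3.32 in rat 75, the lowest at 6 weeks, against 4.58. Rats 75, 78 and 80 had the widest steps between low values, and the part of this in these gaps was not tested.

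Among the lists of other cells, rat 70 was highest for lymphocytes at 6 weeks, at 5.27 against 3.42 in the next rat. Rat 74 was lowest for fibroblasts at 10 weeks, at 10.7 against 11.5. Rat 86 was lowest at 6 weeks for luminal epithelium, at 9.45 against 9.99, and for basal epithelium, at 10.0 against 10.8.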

How the results depend on the processing

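The members kept a log2 fold change above 0 under every alternative run. Leaving out each rat in turn gave 2.46 to 2.83 for Hbb, 1.92 to 2.49 for Slc4a1, 1.10 (without rat 81) to 1.59 for Alas2 and 0.54 (without rat 78) to 0.74 for Fech, and the smaller set of rats alone gave 2.24 for Alas2. The DE genes over the whole table numbered 2381, 1411 (without rat 70) to 2680 (without rat 81) with a rat left out, 1488 without rat 84 and 1558 without rat 87, and the larger set alone gave 3478. The smaller set alone, with 2 rats against 3, gave 0 DE genes and 0 red cell genes in either direction by limma, where 1993 genes had an unadjusted p under 0.05, 7 of them red cell genes higher at 6 weeks and 2 higher at 10 weeks. Red cell genes higher at 6 weeks numbered 2 (without rat 72) to 8 (without rat 81), 3 without rat 70, 71, 74, 78, 83, 84 or 87, 14 in the larger set alone and 8 without the 3 rats with the widest steps. Those higher at 10 weeks numbered 0 (without rat 70) to 3, 1 without rat 72 or 84, 1 under library size scaling and 0 without the 3 rats by limma, with 4 at an unadjusted p under 0.05 both without rat 70 and without the 3 rats. The cause was not tested.

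Correlations with age means removed changed most. With a rat left out, r ran from -0.02 to 0.52 for Hbb and Slc4a1, 0.45 to 0.65 for Hbb and Alas2, -0.63 to -0.28 for Hbb and Fech, 0.05 to 0.74 for Slc4a1 and Alas2, -0.50 to 0.34 for Slc4a1 and Fech and -0.33 to -0.04 for Alas2 and Fech. In the larger set alone, r was -0.38 for Hbb and Slc4a1, -0.23 for Slc4a1 and Alas2 and 0.70 for Slc4a1 and Fech. In the smaller set it was 0.84 for Hbb and Slc4a1 and -0.59 for Alas2 and Fech. Without the 3 rats with the widest steps it was 0.56 for Slc4a1 and Fech and 0.16 for Alas2 and Fech. With the age means kept, r was 0.78 for Hbb and Slc4a1, 0.82 for Hbb and Alas2, 0.53 for Hbb and Fech, 0.48 for Slc4a1 and Fech and 0.46 for Alas2 and Fech. A minimum of 10 in every rat gave no value for Slc4a1 and Alas2. No named gene that was DE reversed, and of 516 values of those genes under an alternative, 158 were no longer past the threshold. Of 18 named red cell genes that were not DE, 9 changed sign in the smaller set alone (Alad, Bcl11a, Cpox, Prdx2, Tmem14c, Tspan33, Tspo, Urod and Uros), 2 without the 3 rats (Cbfa2t3 and Dmtn), Dmtn in the larger set and Cpox without rat 84. No paired analysis was possible because the 2 ages share no rat number.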

Other observations

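In the larger set of 8 rats alone, some further genes of haem handling were DE and higher at 6 weeks by limma, in a fit that called 3478 genes over the whole table against 2381 with all rats. They were Abcb6, a porphyrin transporter (log2 fold change 0.81, adjusted p = 0.00836, against 0.0843 with all rats), Tmem14c, which moves porphyrin into the mitochondrial matrix (0.95, adjusted p = 0.0235, against 0.102), and the biliverdin reductases Blvra (0.68, adjusted p = 0.0331, against 0.0802) and Blvrb (0.99, adjusted p = 0.0239, against 0.171). Prdx2, Tspan33 and Isg20 of the late erythroid list and Bcl11a were also higher in that set, and the water channel Aqp1 was lower (-0.57, adjusted p = 0.0446, against 0.239 with all rats). The set was drawn from the data after age was removed, so these are values of these 8 rats, and a difference between the sets was not tested.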
